A study of Homo sapiens with 12 samples.

Results

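The E2F and DP transcription factors were examined here as a family of 10 genes, E2F1 to E2F8 together with TFDP1 and TFDP2, in RNA-seq libraries of human cells. The 10 genes were taken by name, and each was found once among the 60660 gene identifiers of the count files. Cells were transfected with a control siRNA (siCTL, genotype WT in the labels) or with an siRNA against CARM1 (siCARM1), CHD4 (siCHD4), HDAC2 (siHDAC2), GATAD2A (siGATAD2A) or KDM1A (siKDM1A), the 5 knockdown genotypes of the labels. CARM1 is an arginine methyltransferase, and the other 4 targets belong to or associate with the NuRD chromatin remodeling complex. Each of the 6 groups held 2 libraries, 12 in all, from HEK293T cells grown in DMEM with serum and no further treatment. The series asks how CARM1 and NuRD act in transcription and in cell cycle progression, for which E2F genes are central regulators.

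Several features limit these groups as a model. HEK293 cells, called so in the paper and HEK293T in the labels, carry adenovirus E1A, and the T derivative also carries SV40 large T antigen. Both viral proteins bind the retinoblastoma family that holds E2F factors in check, so the E2F pathway of these cells is not that of a normal cell. The methods give 1 siRNA sequence for each NuRD target and a pair for CARM1 without naming the one used for RNA-seq. The libraries were sequenced at either of a pair of companies, which the labels do not assign to libraries, so sequencing site and group cannot be told apart here. Nothing states that the 2 libraries of a group came from separate cultures, so p-values measure the spread between these libraries, which may be technical. In RNA from bulk cells, fewer cells expressing a gene and less RNA per cell cannot be told apart.

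The libraries held 19308315 to 28648657 counts on genes (median 24292682). The counts of the 2 replicates differed beyond sampling noise throughout, the chi-square over its degrees of freedom being 1.77 to 4.97. The targeted gene was at 19.2% of its siCTL level in siCARM1, 19.7% in siHDAC2, 29.8% in siGATAD2A, 16.6% in siKDM1A and 68.9% in siCHD4. Levels of other targets differed too, in CPM (counts scaled to a common library size). GATAD2A was at 369 CPM in siCHD4 against 174 in siCTL. CHD4 was at 31.7 CPM in siCARM1 against 39.6 in siCTL, and CARM1 at 151 in siKDM1A against 126. These groups thus differ from siCTL in more than the gene targeted. In CHD4, 46.9% of exonic bases are shared on the same strand with a readthrough gene, ENSG00000285238, and fragments that overlap both genes were left uncounted. Of 4 genes looked up as markers of HEK293 cells, LIN28B was at 8.44 to 16.0 FPKM (counts divided by exonic length and by the total counts of the library). The other 3 were low, with PAX2 at 0.039 to 0.331, NEFM at 0 to 0.196 and INA at 0.0644 to 1.23 FPKM. ESR1 of the breast cancer line MCF7 reached no more than 0.0399 FPKM, TFF1 0.398 and the blood cell gene PTPRC 0.00271, whereas GATA3 lay at 3.01 to 5.05 FPKM.

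E2F factors bind the promoters of genes needed for DNA replication and for entry into S phase. E2F1 to E2F6 bind DNA as a pair with a DP protein, and E2F1 to E2F5 can be held by a pocket protein (RB1, RBL1 or RBL2) until cyclin-dependent kinases phosphorylate it. E2F1, E2F2 and E2F3 are classed as activators, E2F4 and E2F5 as repressors that work with pocket proteins, E2F6 as a repressor that works with a Polycomb complex, and E2F7 and E2F8 as atypical repressors that need no DP partner. Several E2F genes are themselves E2F targets.

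The promoters of 5 of these genes are shown because they carry, or in E2F7 lack, an E2F motif beside the genes whose RNA changed or did not change below. RefSeq windows (build GRCh38.p14, 250 bases before and 50 bases from the annotated start) were given for 8 of the 10 genes, not for E2F5 and E2F8. The stretch printed is the 150 bases just before the start, 5′ to 3′ on the gene's strand, with E2F motifs in capitals.
E2F1 promoter: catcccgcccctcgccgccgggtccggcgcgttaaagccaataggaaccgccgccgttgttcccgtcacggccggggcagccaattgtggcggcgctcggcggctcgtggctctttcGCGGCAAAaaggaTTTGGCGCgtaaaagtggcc
E2F2 promoter: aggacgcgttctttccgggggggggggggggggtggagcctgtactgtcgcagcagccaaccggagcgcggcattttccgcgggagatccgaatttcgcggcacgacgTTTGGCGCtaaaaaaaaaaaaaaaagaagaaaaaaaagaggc
E2F3 promoter: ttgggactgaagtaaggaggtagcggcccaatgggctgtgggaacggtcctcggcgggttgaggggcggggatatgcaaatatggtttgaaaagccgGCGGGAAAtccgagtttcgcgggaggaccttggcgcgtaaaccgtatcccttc
E2F7 promoter: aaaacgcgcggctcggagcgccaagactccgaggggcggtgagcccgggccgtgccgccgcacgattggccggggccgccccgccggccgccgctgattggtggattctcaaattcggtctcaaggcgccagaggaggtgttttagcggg
TFDP1 promoter: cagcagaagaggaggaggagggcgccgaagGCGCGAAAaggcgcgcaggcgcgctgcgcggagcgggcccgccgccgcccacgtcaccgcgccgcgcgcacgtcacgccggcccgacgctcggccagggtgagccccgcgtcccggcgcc
Found by exact match in GRCh37, they lie at chr20:32274192-32274341 (minus strand), chr1:23857726-23857875 (minus), chr6:20401960-20402109 (plus), chr12:77459350-77459499 (minus) and chr13:114238918-114239067 (plus).

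The E2F motif was searched as TTTCCCGC, TTTCGCGC, TTTGCCGC and TTTGGCGC on both strands. Of 35114 promoter windows of the same length, 3.32% held at least 1 of these. Among the genes with a window, E2F1 held 2, at −33 to −26 and at −20 to −13 from the start. The activator genes E2F2 (−42 to −35) and E2F3 (−53 to −46, in the window shown) held 1 each. Another window of E2F3, at a different start, held 0. TFDP1 held 1 at −120 to −113, and E2F4, E2F6, E2F7 and TFDP2 held none. The letters CCAAT, found on either strand in 34.6% of all windows, stood 4 times in the window of E2F7, 4 times in 1 window of E2F3, 3 times in that of E2F1 and 2 times in 1 of TFDP2. The TTTGAA motif known as CHR, found in 15.2% of all windows, stood in the windows of E2F3 and TFDP2. The study examined the E2F1 promoter by ChIP with a primer pair whose reverse primer covers the motif nearest the start.
E2F1 forward ChIP primer: caaggccatgacgctcac
E2F1 reverse ChIP primer: aaaaaggaTTTGGCGCgta
The product spans chr20:32274062-32274219 in GRCh37, 158 bases across the start of E2F1. The study also showed ChIP-seq tracks of CARM1 and NuRD subunits at E2F1 and E2F8, and its primer list holds mRNA primers for E2F1 and E2F2. The motif matches are letters in a window, and ChIP data were not analysed here.

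All 10 genes were expressed in siCTL, with the 3 activators among the 5 highest and the repressors and DP genes at both high and low levels. Ordered by FPKM with the length of all exons, E2F1 came first at 48.6 ± 1.87 (SD, n = 2), then TFDP1 at 41.1 ± 0.0180, E2F4 at 23.2 ± 0.0250, E2F2 at 19.5 ± 0.358 and E2F3 at 18.5 ± 0.898. Below them stood E2F7 at 13.6 ± 0.0153, E2F8 at 10.9 ± 0.509, TFDP2 at 8.96 ± 0.270, E2F6 at 7.86 ± 0.0917 and E2F5 at 4.18 ± 0.0546. In each pair of neighbours the 2 library values of 1 gene lay above both of the other, and the narrowest step was that from E2F2 (19.3 and 19.8) to E2F3 (19.2 and 17.9). The length that a gene is divided by moved this order. With the length of the canonical transcript alone TFDP1 came first at 58.3 ± 0.0256 FPKM, E2F1 followed at 48.6 and E2F4 at 39.5 ± 0.0426, and E2F5 stood at 12.7 ± 0.167, above TFDP2 at 10.8 and E2F6 at 9.89.

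**Figure D1:**
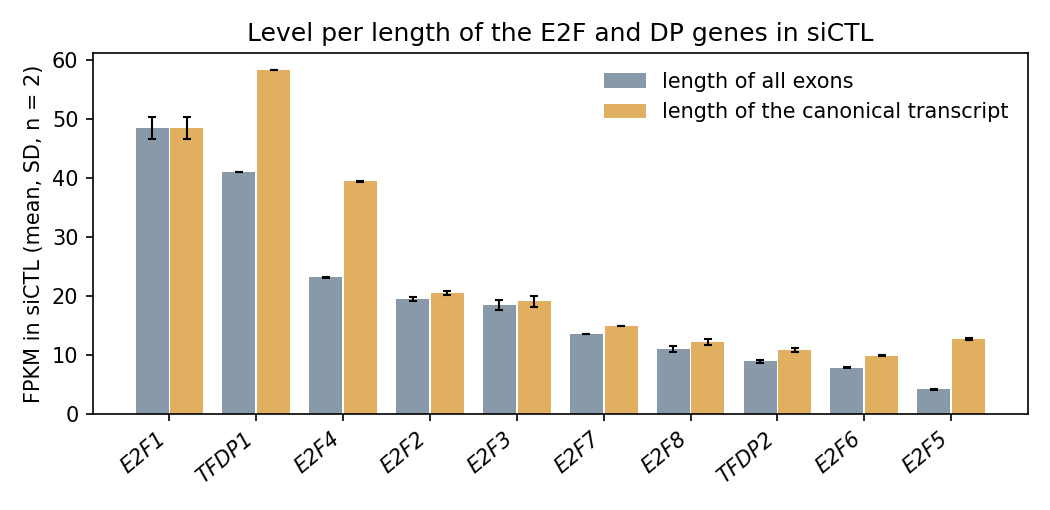
FPKM of the 10 genes in siCTL (bars from 0, mean of 2 libraries, error bars SD), with the length of all exons (grey) or of the canonical transcript (yellow). E2F1 and TFDP1 are the highest with either length, and TFDP1 passes E2F1 (58.3 against 48.6) with the canonical length.

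Each knockdown was then compared with siCTL, and siCARM1 with each other knockdown, by edgeR's quasi-likelihood test over 12830 coding genes. A gene is called lower or higher when its Benjamini-Hochberg adjusted p does not exceed 0.05 and its fold change reaches 1.2. All adjusted p-values below are from edgeR, and levels are given as CPM (counts scaled to a common library size by TMM) in each library. With 2 libraries on each side, the smallest two-sided p of an exact permutation test would be 0.333. The 10 genes gave 50 log2 fold changes against siCTL, of which 10 were lower, 3 higher and 37 neither. In siCARM1, 3 of the 10 genes were lower (E2F1, E2F2, E2F7), beside 14.5% of all genes tested, and 1 was higher (TFDP1), beside 14.9%. In siCHD4, 4 were lower (E2F2, E2F5, E2F7, TFDP2), beside 24.9%, and 0 higher, beside 24.0%. In siHDAC2, 1 was lower (E2F2), beside 9.00%, and 0 higher, beside 10.6%. In siGATAD2A, 1 was lower (E2F7), beside 18.2%, and 2 were higher (E2F1, TFDP1), beside 15.7%. In siKDM1A, 1 was lower (E2F2), beside 11.5%, and 0 higher, beside 14.2%. With so few genes these shares do not set the family apart from all genes tested. When the fold minimum was dropped, more of the 10 genes were called, lower as well as higher. The share over all genes tested is not given for that setting, so those counts are not read as a result about the family. A difference of any kind among the 6 groups was called for all 10 genes on the adjusted p, beside 91.1% of all genes tested, and E2F3 was the weakest of them (adjusted p = 0.00324). All 5 comparisons share the same 2 siCTL libraries.

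**Figure D2:**
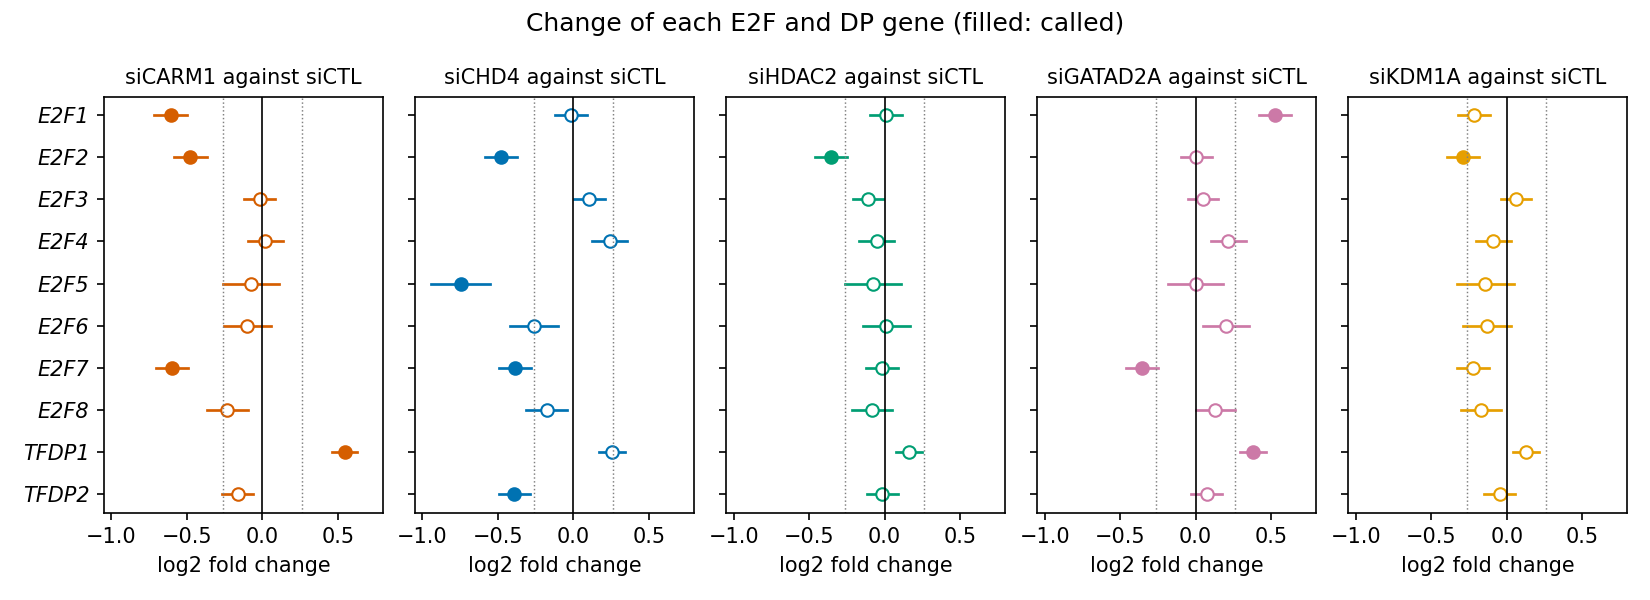
Log2 fold change of each gene in each knockdown against siCTL, with 95% intervals from edgeR's fit (lines) and dotted lines at a fold of 1.2. Filled points are called lower or higher, and E2F1 is the gene called on both sides, at −0.61 in siCARM1 and 0.53 in siGATAD2A.

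E2F1, the activator E2F best known for driving S phase genes and, at high levels, apoptosis genes, changed most across the groups. Its gene (ENSG00000101412.13) lies on the minus strand of chromosome 20 from 32263283 to 32274191, and its canonical transcript has 7 exons. The 2 siCTL libraries held 134 and 143 CPM, and the 2 siCARM1 libraries 93.2 and 88.7. In siGATAD2A they held 201 and 198 CPM. Both siCARM1 libraries thus lay below, and both siGATAD2A libraries above, every library of the other groups. It gave a log2 fold change of −0.61 in siCARM1 (standard error 0.0535, adjusted p = 1.01e-10) and 0.53 in siGATAD2A (standard error 0.0510, adjusted p = 3.95e-10). The siCHD4 libraries, at 133 and 141 CPM, and the siHDAC2 libraries, at 132 and 147, overlapped siCTL. The siKDM1A libraries, at 121 and 117 CPM, both lay under siCTL, with a log2 fold change of −0.22 that missed the fold minimum (adjusted p = 0.0013).

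Compared directly with the other knockdowns, E2F1 was lower in siCARM1 than in each of them. The log2 difference was −0.59 to siCHD4 (standard error 0.0530, adjusted p = 4.13e-11), −0.62 to siHDAC2 (adjusted p = 1.26e-10), −1.13 to siGATAD2A (adjusted p = 1.64e-17) and −0.39 to siKDM1A (adjusted p = 7.81e-07). Of all genes tested, 47.7%, 19.3%, 33.8% and 21.0% differed in either direction in these 4 comparisons, in the same order. Of the 10 E2F and DP genes, 3 differed between siCARM1 and siCHD4, 3 from siHDAC2, 4 from siGATAD2A and 3 from siKDM1A. E2F1 is the gene counted in all 4.

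**Figure D3:**
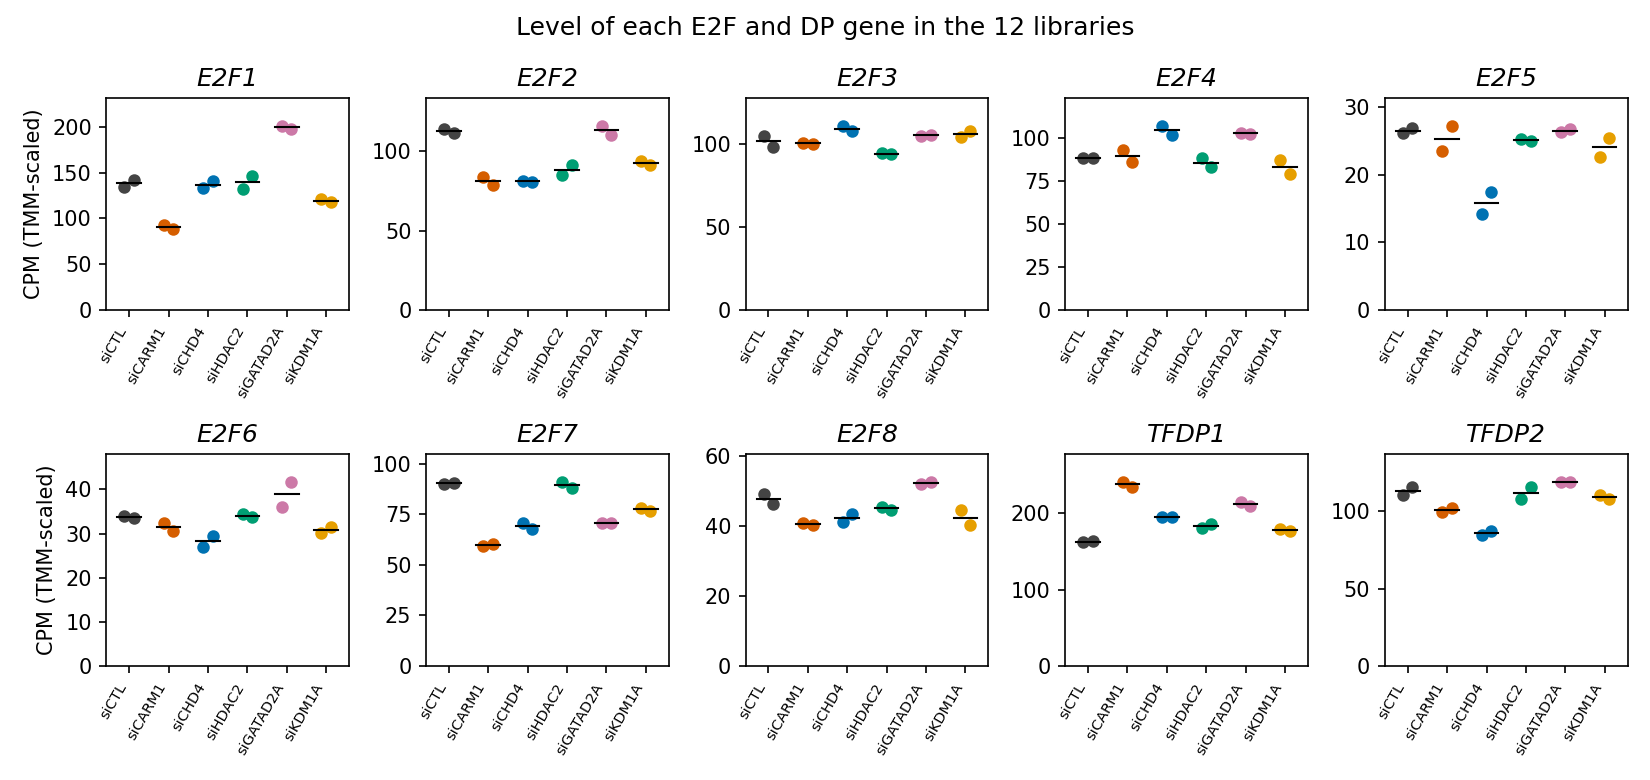
CPM of each of the 10 genes in each library (2 points per group, line at their mean, axes from 0). E2F1 spans 88.7 to 201 CPM with siCARM1 lowest and siGATAD2A highest, and TFDP1 is above both siCTL libraries in every knockdown library.

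E2F2, the second activator, was lower in 4 of the 5 knockdowns. Its gene (ENSG00000007968.7) lies on the minus strand of chromosome 1 from 23832930 to 23857725. The siCTL libraries held 114 and 112 CPM, against 83.7 and 78.6 in siCARM1 and 81.2 and 80.8 in siCHD4. The siHDAC2 libraries held 85.3 and 91.3 CPM, and the siKDM1A libraries 93.7 and 91.4. All 8 of these libraries lay below both siCTL libraries, while siGATAD2A, at 116 and 110 CPM, overlapped siCTL. The log2 fold changes were −0.48 in siCARM1 (standard error 0.0522, adjusted p = 8.34e-09), −0.48 in siCHD4 (adjusted p = 2.14e-09), −0.35 in siHDAC2 (adjusted p = 3.34e-06) and −0.29 in siKDM1A (adjusted p = 3.86e-05). In siGATAD2A the log2 fold change was 0.00, with a 95% interval from −0.10 to 0.11. The direct difference between siCARM1 and siGATAD2A was −0.48 (standard error 0.0516, adjusted p = 3.69e-09), whereas that between siCARM1 and siCHD4 was 0.00, with a 95% interval from −0.10 to 0.11.

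E2F3, the third activator, was called in no knockdown. Its gene (ENSG00000112242.15) lies on the plus strand of chromosome 6 from 20402110 to 20493945. Over the 12 libraries it ranged from 94.0 to 111 CPM with a median of 105. Its log2 fold changes ran from −0.11 in siHDAC2 to 0.11 in siCHD4, and that in siCARM1 was −0.02 with a 95% interval from −0.12 to 0.08. Of the 3 activator genes, each with an E2F motif in the promoter shown, E2F1 and E2F2 were thus lower in siCARM1 and E2F3 was not called. The other window of E2F3 has no such motif, and counts per gene do not separate its starts. The difference between the genes was not tested.

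E2F4, the repressor that carries much of the E2F activity of resting cells, was not called lower or higher in any knockdown. Its gene (ENSG00000205250.9, chromosome 16, 67226058 to 67232821, plus strand) ranged from 78.7 to 107 CPM. Its largest value was in siCHD4, where the libraries held 107 and 101 CPM against 87.9 and 88.5 in siCTL. Both lay above siCTL, with a log2 fold change of 0.24 that was under the fold minimum (standard error 0.0559, adjusted p = 3.9e-04). In siGATAD2A it was 0.22 (adjusted p = 0.0017), and in siCARM1 it was 0.02 with a 95% interval from −0.09 to 0.14.

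E2F5, the other repressor that works with pocket proteins, was lower in siCHD4. Its gene (ENSG00000133740.11) lies on the plus strand of chromosome 8 from 86089389 to 86129387. The siCTL libraries held 26.2 and 26.8 CPM and the siCHD4 libraries 14.1 and 17.4. Both siCHD4 libraries lay below the 10 other libraries, whose lowest value was 22.7 CPM. On the log2 scale the change was −0.75 (standard error 0.0967, adjusted p = 6.31e-08), the largest of the 50 in size, and in the other knockdowns E2F5 gave −0.14 to 0.00. Compared directly, E2F5 was higher in siCARM1 than in siCHD4 by 0.68 (standard error 0.0955, adjusted p = 3.24e-07). E2F5 rests on the fewest counts of the family, 320 to 670 per library. RBIS and ENSG00000254208 on the opposite strand cover 18.8% of its exonic bases, and 327 to 460 counts per library fell on that strand within E2F5, compared with 42 or fewer in any of the other 9 genes. Counted without regard to strand, the log2 fold change in siCHD4 was −0.57.

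E2F6, which represses as part of the Polycomb complex PRC1.6, was not called in any knockdown. Its gene (ENSG00000169016.17, chromosome 2, 11584501 to 11606303, minus strand) ranged from 27.0 to 41.7 CPM. In siCHD4 the libraries held 27.0 and 29.4 CPM against 34.02 and 33.6 in siCTL. Both lay below siCTL, and the log2 value of −0.26 (standard error 0.0778, adjusted p = 0.0043) stood just under the fold minimum, so that several other settings call it. In siGATAD2A the log2 fold change was 0.20 (adjusted p = 0.0259), where 1 library held 36.1 and the other 41.7 CPM, and without siGATAD2A replicate 1 it was 0.30 and called. Compared directly, E2F6 was lower in siCARM1 than in siGATAD2A by a log2 difference of −0.30 (standard error 0.0740, adjusted p = 0.0011).

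E2F7, an atypical repressor that acts late in S phase on E2F1 and other E2F targets, was lower in 3 knockdowns. Its gene (ENSG00000165891.16) lies on the minus strand of chromosome 12 from 77415028 to 77459349. The siCTL libraries held 90.1 and 90.7 CPM, against 59.3 and 60.1 in siCARM1, 70.8 and 67.6 in siCHD4 and 70.7 and 70.8 in siGATAD2A. All 6 of these libraries lay below siCTL, and siCARM1 was the lowest group of the 6. The log2 fold changes were −0.60 in siCARM1 (standard error 0.0526, adjusted p = 9.21e-11), −0.39 in siCHD4 (adjusted p = 1.35e-07) and −0.35 in siGATAD2A (adjusted p = 1.03e-06). The siKDM1A libraries, at 77.9 and 76.8 CPM, also lay below siCTL, at −0.22 (adjusted p = 7.1e-04), under the fold minimum. The siHDAC2 libraries, at 91.0 and 87.8 CPM, overlapped siCTL. Compared directly, E2F7 was lower in siCARM1 than in siHDAC2 by −0.58 (adjusted p = 3.31e-10) and than in siKDM1A by −0.37 (adjusted p = 1.24e-06). E2F1 and E2F7, activator and atypical repressor, were both lower in siCARM1, and in siGATAD2A they were called in opposite directions.

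E2F8, the partner of E2F7, was called in no knockdown. Its gene (ENSG00000129173.13, chromosome 11, 19245610 to 19263167, minus strand) ranged from 40.2 to 52.7 CPM. Its libraries lay below both siCTL libraries (49.3 and 46.4 CPM) in siCARM1, siCHD4, siHDAC2 and siKDM1A, and above both in siGATAD2A. The log2 fold changes ran from −0.23 in siCARM1 (standard error 0.0658, adjusted p = 0.0046) to 0.13 in siGATAD2A, all under the fold minimum. Without siCTL replicate 2 the value in siCARM1 was −0.28 and called. The direct difference between siCARM1 and siGATAD2A was −0.36 (standard error 0.0641, adjusted p = 2.09e-05).

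TFDP1 encodes DP1, the main dimer partner of E2F1 to E2F6, and was higher in 2 knockdowns. Its gene (ENSG00000198176.13) lies on the plus strand of chromosome 13 from 114239036 to 114295788. The siCTL libraries held 162 and 163 CPM, the siCARM1 libraries 241 and 234, and the siGATAD2A libraries 214 and 210. The siCHD4 libraries held 194 and 195 CPM, siHDAC2 180 and 185, and siKDM1A 179 and 177. All 10 knockdown libraries lay above both siCTL libraries. All comparisons with siCTL share these 2 libraries, whose mapping shares differ from those of the knockdowns as given above. The siCARM1 libraries were the highest of all. The log2 fold change was 0.54 in siCARM1 (standard error 0.0417, adjusted p = 4.34e-12) and 0.38 in siGATAD2A (standard error 0.0418, adjusted p = 5.98e-09). In siCHD4 it was 0.26 (adjusted p = 3.65e-06), in siHDAC2 0.17 (adjusted p = 0.00266) and in siKDM1A 0.13 (adjusted p = 0.0144), all under the fold minimum. Compared directly, TFDP1 was higher in siCARM1 than in siCHD4 by 0.29 (adjusted p = 3.37e-07), than in siHDAC2 by 0.38 (adjusted p = 1.63e-08) and than in siKDM1A by 0.42 (adjusted p = 1.6e-09). The difference to siGATAD2A, 0.17 (adjusted p = 0.00103), was under the fold minimum.

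TFDP2, which encodes the second DP protein, was lower in siCHD4 alone among the called values. Its gene (ENSG00000114126.18, chromosome 3, 141663270 to 141868386, minus strand) held 110 and 116 CPM in siCTL and 84.6 and 87.3 in siCHD4. Both siCHD4 libraries lay below the 10 other libraries. The log2 fold change there, −0.39, had a standard error of 0.0506 (adjusted p = 5.68e-08). In siCARM1 the libraries held 99.5 and 102 CPM, at −0.16 (adjusted p = 0.00772), under the fold minimum. Thus in siCHD4 the DP genes gave 0.26 for TFDP1 and −0.39 for TFDP2, and in siCARM1 0.54 and −0.16.

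The activator and repressor classes were next compared by their summed level, as a description with no test. E2F1 to E2F3 together stood at 86.7 ± 0.619 FPKM in siCTL (SD, n = 2), 64.2 ± 1.77 in siCARM1 and 109 ± 1.53 in siGATAD2A. E2F4 to E2F8 together stood at 59.7 ± 0.506, 53.0 ± 1.18 and 62.7 ± 1.07 FPKM in these groups. The ratio of activators to repressors was 1.45 ± 0.0227 in siCTL, 1.21 ± 0.00645 in siCARM1 and 1.74 ± 0.0539 in siGATAD2A. It was 1.45 ± 0.0347 in siCHD4, 1.403 ± 0.113 in siHDAC2 and 1.43 ± 0.0354 in siKDM1A, where the libraries overlapped those of siCTL. The ratio of siCARM1 was thus the lowest, and that of siGATAD2A the highest, in both of their libraries. E2F1 weighed most in the activator sum. In siGATAD2A it stood at 70.0 FPKM against 48.6 in siCTL, E2F2 at 19.6 against 19.5 and E2F3 at 19.1 against 18.5. In siCARM1 E2F1 stood at 31.9, E2F2 at 14.0 and E2F3 at 18.3 FPKM. The median log2 fold change in siGATAD2A was 0.05 for activators and 0.13 for repressors. The higher ratio there thus follows E2F1 and not all 3 activators. The size of the ratio rests on the length each gene is divided by. With canonical transcript lengths, an alternative added after the data were seen, it was 0.989 ± 0.0115 in siCTL, 0.803 ± 0.00924 in siCARM1 and 1.16 ± 0.0336 in siGATAD2A, so that summed activators did not exceed summed repressors in siCTL. The libraries of siCARM1 were the lowest and those of siGATAD2A the highest with these lengths too.

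Which repressors stand in the denominator set what the ratio showed for siCHD4. With E2F4 and E2F5 alone, the ratio was 3.17 ± 0.0134 in siCTL, 2.34 ± 0.0116 in siCARM1, 2.75 ± 0.115 in siCHD4 and 3.50 ± 0.0499 in siGATAD2A. With canonical lengths these became 1.69 ± 0.00420, 1.26 ± 0.0118, 1.54 ± 0.0476 and 1.88 ± 0.0294. The atypical pair E2F7 and E2F8 stood at 24.5 ± 0.494 FPKM in siCTL, 18.3 ± 0.0122 in siCARM1 and 19.5 ± 0.0385 in siCHD4. The pair of DP genes stood at 50.1 ± 0.288 FPKM in siCTL and 67.9 ± 0.988 in siCARM1, in which it exceeded the summed activators. E2F1 over TFDP1 was 1.18 ± 0.0451 in siCTL, 0.533 ± 0.00844 in siCARM1 and 1.31 ± 0.00296 in siGATAD2A, or 0.833, 0.375 and 0.924 with canonical lengths.

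**Figure D4:**
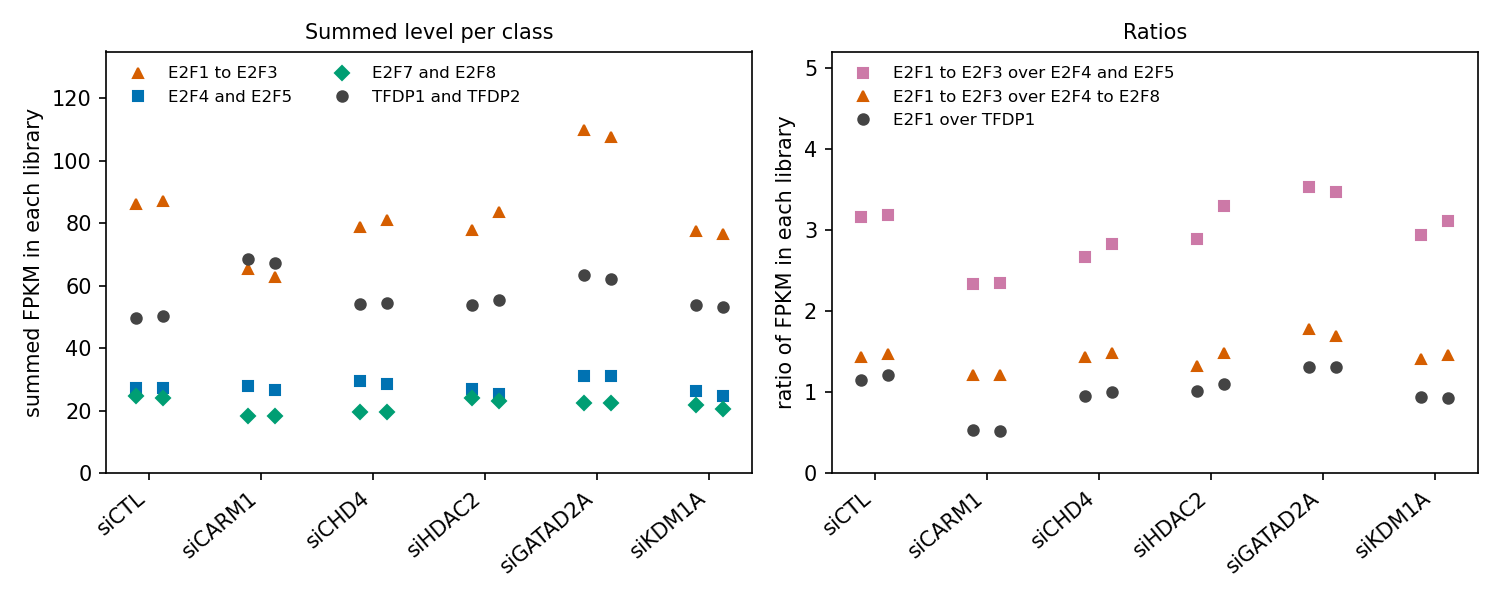
Left, summed FPKM of 4 classes in each library, and right, ratios of FPKM in each library (both axes from 0, 2 points per group). In siCARM1 the activators stand at 64.2 FPKM beside 67.9 for the DP genes, and E2F1 over TFDP1 is 0.533 there and 1.18 in siCTL.

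Genes around the family were described by lists. Among the pocket proteins, RBL1 and RBL2 were higher together in several knockdowns in which RB1 was not called. RB1, the retinoblastoma protein that binds E2F1 to E2F3, held 86.2 and 82.8 CPM in siCTL, 60.1 and 61.4 in siCHD4 and 66.4 and 69.1 in siGATAD2A. It was lower in siCHD4 (log2 fold change −0.48, adjusted p = 1.99e-08) and in siGATAD2A (−0.32, adjusted p = 2.57e-05), with 0.14 in siCARM1. RBL1 and RBL2, which encode p107 and p130 and pair mainly with E2F4 and E2F5, were both higher in siCARM1 (0.47 and 0.35), siHDAC2 (0.38 and 0.38) and siKDM1A (0.33 and 0.32). In siGATAD2A, RBL2 was lower (−0.43, adjusted p = 1.37e-07) and RBL1 gave −0.11. Of 15 pocket protein values, 3 were lower and 6 higher, where over all genes tested 15.6% of the values of the 5 knockdowns were lower and 15.9% higher. The median over all genes tested lay between −0.00237 and 0.0051 in the 5 knockdowns.

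The MuvB subunits, which form the DREAM complex with E2F4 or an activating complex with B-MYB, were listed with MYBL2 and the kinase DYRK1A. These 7 genes gave 35 values of which 1 was lower and 4 higher, beside 15.6% and 15.9% over all genes tested. MYBL2, itself a known E2F target, was higher in siGATAD2A (0.52, standard error 0.0406, adjusted p = 4.52e-12) and siCHD4 (0.34), with −0.20 in siCARM1. LIN52, a MuvB subunit, was higher in the same pair of knockdowns (0.33 and 0.30). The 1 lower value was that of DYRK1A, which promotes DREAM assembly, in siKDM1A (−0.28).

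The G1 cyclins and kinases that release E2F from pocket proteins gave 40 values, 10 lower and 8 higher, beside the same 15.6% and 15.9%. CCND1 (cyclin D1) was lower in siKDM1A (−0.69), siGATAD2A (−0.42) and siHDAC2 (−0.35), and CCND3 in siCARM1 (−0.67), siKDM1A (−0.44) and siHDAC2 (−0.33). CCNE2 (cyclin E2) was lower in siGATAD2A (−0.83) and siKDM1A (−0.44). CDK6 was higher in siGATAD2A (0.72), siCARM1 (0.60) and siKDM1A (0.48). The 3 subunits of ubiquitin ligases that act on E2F proteins gave 4 lower and 1 higher of 15 values, beside 15.6% and 15.9% over all genes. CCNF (cyclin F) was lower in siCARM1 (−0.39) and siKDM1A (−0.27), FZR1 likewise (−0.32 and −0.28), and SKP2 was higher in siCARM1 (0.35).

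The 10 partners of E2F6 in PRC1.6 gave 50 values, 7 lower and 8 higher, close to the 15.6% and 15.9% of all genes tested, so the list did not stand apart by these counts. CBX3 was lower in 4 knockdowns, from −0.48 in siCHD4 to −0.27 in siGATAD2A, and RING1 in 3, from −0.43 in siCHD4. PCGF6, the subunit that defines the complex, was higher in 4 knockdowns (0.27 to 0.38), and MAX was higher in siCHD4 (0.41). Of 5 germ line genes that PRC1.6 silences, 0 passed the level filter, and no library held more than 21 counts of any of them (STAG3).

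Of 35 S phase genes known as E2F targets, 18 were lower and 1 higher in siCHD4, beside 24.9% lower and 24.0% higher among all genes tested, and their median log2 fold change was −0.27. RFC4, a subunit of the clamp loader, gave −0.81 (standard error 0.0633, adjusted p = 1.32e-12), RRM2 of ribonucleotide reductase −0.78 and the licensing factor CDT1 −0.68. E2F1 gave −0.02 and E2F2 −0.48 in the same comparison. In siCARM1, where E2F1 and E2F2 were both lower, 2 S phase genes were lower (CDT1 at −0.47 and CHEK1) and 3 higher, beside 14.5% and 14.9%, with a median of 0.04. In siHDAC2, 0 were lower and 3 higher, beside 9.00% and 10.6% (median 0.02). In siGATAD2A the counts were 2 and 4, beside 18.2% and 15.7% (median 0.02), and in siKDM1A 6 and 1, beside 11.5% and 14.2% (median −0.06). CHEK1 was outside the rule for named genes and was chosen after its value was seen.

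**Figure D5:**
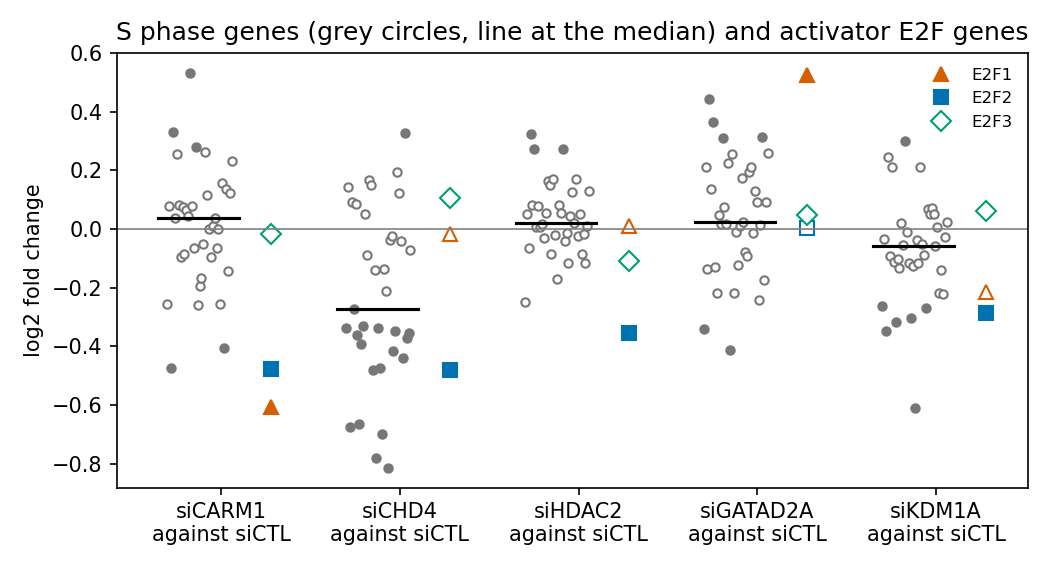
Log2 fold change against siCTL of 35 S phase genes (circles, filled where called, line at the median) beside E2F1, E2F2 and E2F3 (coloured symbols). In siCHD4 the median of the S phase genes is −0.27 and E2F1 is at −0.02, and in siCARM1 the median is 0.04 and E2F1 is at −0.61.

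The 5 apoptosis genes known as E2F1 targets gave 25 values, 8 lower and 6 higher, beside 15.6% and 15.9% over all genes tested. TP73, which encodes p73, was lower in all 5 knockdowns, from −0.27 in siGATAD2A to −0.96 in siCHD4. APAF1, the scaffold of the apoptosome, was lower in siGATAD2A (−0.89) and siCHD4 (−0.61). E2F1 was called lower in siCARM1 and higher in siGATAD2A, and gave −0.22, under the fold minimum, in siKDM1A. A relation between E2F1 and TP73 was not tested.

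The genes most like each member were named by Pearson's r of log2 CPM over the 12 libraries, among the 12830 genes tested. They share the libraries and their scaling, and with so many genes high values are found for every member. For E2F1 they were UBE2Z (r = 0.974), GATAD2B (0.966) and C19orf25 (0.960). Spearman's rho with E2F1 was 0.902, 0.713 and 0.937 for these genes, lowest for GATAD2B. For E2F2 they were SERTAD3 (0.981), ANKRD9 (0.980) and STMN3 (0.971), for E2F7 MINK1 (0.957), ZBTB40 (0.952) and SNN (0.945), and for TFDP1 CHPT1 (0.947), SMARCA1 (0.945) and PREP (0.942). The first gene was IL4I1 for E2F3 (0.948), LARP1 for E2F4 (0.954), PRKAR1A for E2F5 (0.976), ZFP36L1 for E2F6 (0.930), MAP2K7 for E2F8 (0.924) and DHDDS for TFDP2 (0.977). By Spearman's rho the 3 leading genes were others for 8 of the 10 members, with 2 of 3 shared for E2F4 and 1 of 3 for TFDP1. No member of the family was among the 3 genes most like another.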

How the data were processed

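RNA-seq was measured in 12 libraries of siRNA-transfected HEK293T cells. For each library, unnormalized counts per Ensembl gene were deposited by the authors in 3 columns (no strand, forward, reverse). The submitters' processing notes name hg19, CASAVA 1.4 and STAR 2.7.10, and the annotation release is not given in the sources used here. The paper's methods name TopHat, HOMER and DESeq2 for its own figures. Pairs that map to several places were not counted, which bears on genes with near-identical copies. The 10 annotated pseudogenes of the family held 0 to 13 counts per library.

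Counts of the reverse strand (column 4) were used, since the kit is directional. Of 60660 identifiers, 58662 (96.7%) were matched to GENCODE (release 44) mapped to GRCh37. Unmatched identifiers (1954, with 1.75% to 2.61% of counts) and 44 pseudoautosomal copies were left out of the tests. The test covered protein-coding genes whose group mean exceeded an FPKM of 0.5 in 1 or more groups, 12830 in all, with edgeR 4.0.16 in R 4.3.3 (TMM, factors 0.968 to 1.01, 1 model of 6 group means, biological coefficient of variation 3.47%, quasi-likelihood test, Benjamini-Hochberg adjustment within a comparison). FPKM was computed from exonic length and the total of counts on genes. The code was tested on simulated data before use. Alternatives were DESeq2 1.42.0, RLE size factors, unstranded counts, 3 other filters, a replicate block, a fit to the 2 groups in question, no fold minimum and leaving out each library, and canonical transcript lengths for levels and ratios.

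The members, lists and tests were chosen with earlier results of these data known. All members are named, with all pocket proteins. From each other list up to 4 genes are named, those with the largest absolute log2 fold change among calls in which both knockdown libraries lie on the same side of both siCTL libraries. Some genes that this rule takes from the S phase and apoptosis lists are counted but not reported here by name. Lists were pocket proteins, MuvB and B-MYB, G1 cyclins and kinases, ubiquitin ligase subunits, PRC1.6 partners of E2F6, germ line genes, S phase targets and apoptosis targets. Promoters were read from a RefSeq table, and primers from the study's primer list.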

Additional observations from a re-analysis of the deposited data

Results flagged for a closer look

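A total of 13 differences between siCARM1 and another knockdown, tested directly in edgeR's fit, passed both the adjusted p and the fold minimum, each a difference between groups beyond the spread of their libraries. Sequencing site and group cannot be told apart. As log2 values of siCARM1 minus the other knockdown, E2F1 gave −0.59 against siCHD4, −0.62 against siHDAC2, −1.13 against siGATAD2A and −0.39 against siKDM1A. TFDP1 gave 0.29 against siCHD4, 0.38 against siHDAC2 and 0.42 against siKDM1A. E2F7 gave −0.58 against siHDAC2 and −0.37 against siKDM1A, and E2F5 gave 0.68 against siCHD4. Against siGATAD2A, E2F2 gave −0.48, E2F6 −0.30 and E2F8 −0.36. In each of the 13, both libraries of siCARM1 lay on 1 side of both libraries of the other knockdown. E2F6 and E2F8 were called in neither siCARM1 nor siGATAD2A against siCTL. With 2 libraries per group, no group could be examined for a single library far from the rest.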

How the results depend on the processing

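The 13 values called against siCTL kept their direction in each of the 12 refits without 1 library (156 pairs of a value and a refit). Most of these refits left out a library of neither group compared, and so bear less on a value. Under the 9 other settings the 13 values kept direction and call (117 pairs of a value and a setting). Dropping the fold minimum, among the 9, reuses the main fit and cannot lose a call. Values that were not called became called in 17 of 333 pairs of a value and another setting, most of them by dropping the fold minimum. Among the rest was E2F6 in siCHD4, at −0.27 counted without regard to strand. Some also became called as libraries were left out. Without the fold minimum, 5 genes were lower in siCARM1, 2 higher in siCHD4, 1 higher in siHDAC2, 4 higher in siGATAD2A, 4 lower and 1 higher in siKDM1A, and 7 and 8 differed between siCARM1 and siCHD4 or siGATAD2A. Shares over all genes tested are not given for this setting, so these counts do not set the family apart. The number higher in siCHD4 ranged from 0 to 1 as libraries were left out, the 1 being E2F4 without siCHD4 replicate 2 (0.27). In those refits 1 group keeps a single library, assumed to vary like the others. With E2F4 and E2F5 alone as repressors, the ratio of activators was 3.17 in siCTL, 2.34 in siCARM1, 2.75 in siCHD4 and 3.50 in siGATAD2A, with siHDAC2 at 3.09 and siKDM1A at 3.02. With canonical transcript lengths, added after the data were seen, the ratio over all repressors fell to 0.803 in siCARM1, 0.957 in siHDAC2 and 0.968 in siKDM1A, and to 0.984 in siCHD4, 0.989 in siCTL and 1.16 in siGATAD2A.

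The sign changed in 25 pairs of a value and a setting, none of a called value and none over 0.0806 in size after the change. Some values recur under several settings, such as E2F2 and E2F5 in siGATAD2A. Under the replicate block it did so for E2F5 in siGATAD2A (0.0035). Counted without regard to strand, it did so for E2F5 in siHDAC2 (0.0093) and siGATAD2A (0.0806), E2F6 in siHDAC2 (−0.000499) and E2F2 in siGATAD2A (−0.0111). With FPKM larger than 1, E2F5 in siGATAD2A was 0.0035, and with no filter E2F2 there was −0.0026. With edgeR's filter on every biotype, E2F1 (−0.0149) and E2F6 (−0.0145) in siHDAC2 and E2F2 in siGATAD2A (−0.0218) changed sign.

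As libraries were left out, the values that changed sign ranged in siCARM1 from −0.0679 to 0.0274 (E2F3), −0.0406 to 0.0722 (E2F4) and −0.182 to 0.0386 (E2F5), and in siCHD4 from −0.0702 to 0.0242 (E2F1). In siHDAC2 they ranged from −0.0742 to 0.0796 (E2F1), −0.0033 to 0.0211 (E2F6), −0.0461 to 0.0066 (E2F7) and −0.0684 to 0.0270 (TFDP2), and in siGATAD2A from −0.0334 to 0.0402 (E2F2) and −0.0164 to 0.0154 (E2F5). The cause of these changes was not tested.

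Replicates of the same number did not deviate together (r −0.142 to 0.136 over the group pairs), so the numbers pair no libraries, and the replicate block changed no call against siCTL, with 3 genes lower in siCARM1 as without it. Of the 175 values of S phase genes, 28 were lower and 12 higher, beside 15.6% and 15.9% for all genes tested. Dropping the fold minimum raised both of these counts. No share for all genes tested is given there, so this rise does not set the S phase genes apart. Depth limits E2F5 most, at 320 counts in its lowest library.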
